A study of Mus musculus with 15 samples.

Results

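The promoters of Atmin, Dclre1c and Mlh3, 3 genes of the DNA damage response, were followed through a promoter-capture Hi-C table by their gene names. They account for 13 of 36353 listings of a promoter with a HindIII fragment (9 for Atmin, 3 for Mlh3 and 1 for Dclre1c) and for 3 of 4429 promoters. They were chosen by gene name with their scores in view, among them the Early and Basal scores of 1 Atmin fragment, so their values are a description, with no test. Promoter-capture Hi-C ligates DNA ends that are near each other in fixed nuclei and pulls out the products that contain a promoter, here with 10000 RNA baits for 5000 promoters. Hippocampal neuronal nuclei were stained for NeuN and with a GFP antibody and sorted, from mice of genotype +/+ that carried alleles named in the labels, ArcCreERT2 and R26R-STOP-floxed- yellow fluorescent protein (eYFP), in which a tamoxifen-dependent Cre driven by the Arc promoter switches on the fluorescent reporter. The treatment text, the same for all libraries, has 4-hydroxytamoxifen given 1 h before contextual fear conditioning. Dark periods of 24 h before and 48 h after are also listed for all libraries. Hippocampi of 10 to 12 mice were combined for 10000 nuclei per condition, so p-values below measure the spread between libraries of pooled mice. The 15 libraries form the groups Basal (n = 3), Early (n = 4), Late (n = 4) and Reactivated (n = 4), which by the series' text cover encoding, consolidation and recall of a memory. Brains were taken 1.5 to 2 h after the task, or at 5 days from mice that did or did not meet the cue again, but no usable label ties a group to an interval or states how Basal was treated. The labels used here give no mouse age, and contact scores cannot check the cell type through its marker genes.

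Cells answer broken DNA with sensor kinases such as ATM, which act through partner proteins, and with repair pathways suited to each kind of lesion. Neurons do not divide and rely on end joining for double-strand breaks, which have been described at promoters of activity-induced genes after stimulation. Atmin encodes a zinc finger protein that partners ATM and also acts as a transcription factor. Dclre1c encodes Artemis, the nuclease that trims and opens DNA ends for end joining. Mlh3 encodes a MutL protein that acts in mismatch repair and in meiotic crossing over.

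The promoter sequences are shown first, since each score below belongs to a contact of one of these promoters; the exact bait positions were not used here. All 3 names matched a RefSeq promoter window of build GRCm38.p6, printed here from 250 bases before to 30 bases after the annotated start on the gene's strand: chr8:116943143-116943422 (plus strand) for Atmin, chr2:3423881-3424160 (plus strand) for Dclre1c and chr12:85270570-85270849 (minus strand, the first of 2 annotated windows) for Mlh3. Capitals mark the letters CCGGAAGTG, the core of ETS-type sites, searched on both strands, as were all letter strings below.
Atmin: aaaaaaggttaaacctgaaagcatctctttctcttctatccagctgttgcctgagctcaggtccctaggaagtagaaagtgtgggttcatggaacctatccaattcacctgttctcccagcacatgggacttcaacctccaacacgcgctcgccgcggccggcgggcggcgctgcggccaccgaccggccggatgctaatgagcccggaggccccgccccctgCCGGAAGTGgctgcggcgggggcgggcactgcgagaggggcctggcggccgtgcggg
Dclre1c: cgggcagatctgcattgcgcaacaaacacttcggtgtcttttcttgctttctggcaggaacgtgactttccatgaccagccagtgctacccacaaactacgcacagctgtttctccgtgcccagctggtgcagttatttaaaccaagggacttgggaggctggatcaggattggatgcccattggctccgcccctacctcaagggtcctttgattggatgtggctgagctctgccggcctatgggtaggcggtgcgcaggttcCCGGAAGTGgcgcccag
Mlh3: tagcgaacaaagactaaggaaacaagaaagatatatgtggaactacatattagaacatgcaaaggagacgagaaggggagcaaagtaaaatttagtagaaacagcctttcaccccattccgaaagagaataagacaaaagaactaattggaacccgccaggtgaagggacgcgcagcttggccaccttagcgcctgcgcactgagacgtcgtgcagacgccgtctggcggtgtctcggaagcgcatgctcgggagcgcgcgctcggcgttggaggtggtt
CCGGAAGTG starts at base 224 of the Atmin window and at base 264 of the Dclre1c window and is not in the Mlh3 window. It was picked after the sequences had been read, and 1.99% of 27025 RefSeq promoter windows of this length hold it, as do 3.37% of the 3262 windows matched to promoters of the table. The recognition letters of HindIII, AAGCTT, are in none of the 3 windows, against 6.83% of all windows and 5.06% of the table's. The GC box letters GGGCGG are in the Atmin and Dclre1c windows, in 34.9% of all windows and in 61.5% of the table's. In the Dclre1c window they are on the reverse strand alone. ATTGG, the reversed CCAAT box, is in all 3, in 36.6% of all windows and in 37.4% of the table's. In the Atmin window it is on the reverse strand, so the printed letters there read CCAAT. The E-box letters CACGTG and the letters TGACG of a cyclic AMP response element are in none of the 3, against 6.89% and 20.1% of all windows and 9.5% and 28.6% of the table's. The CG dinucleotide occurs 23 times in the Atmin window, 12 times in that of Dclre1c and 21 times in that of Mlh3, above the median of 7 over all windows. The fragments below are on build mm9, so no exact distance from these coordinates is given.

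Each deposited value is the authors' interaction score of a listing in a library, a whole number from 2 to 13683, with no value where no score is listed (taken as 0). Only 15.3% of the table's cells hold a score. The libraries listed between 35 (Reactivated 1) and 12133 (Reactivated 4) pairs, with median listed scores from 10 to 313, and no read depth was at hand. The part of library size in a score was not tested. In 6 pairs of libraries, between 49.1% and 100% of the listings of the smaller library were also scored in the other: the first and second Basal, the last 2 Early, the first 2 and last 2 Late, and the first 2 and last 2 Reactivated libraries. The other 15 pairs within a group shared 8.1% to 18.1% and the 84 pairs across groups 5.71% to 31.4%. The design text calls the libraries biological replicates. Because of this overlap, counts below are also given over 9 library sets, in which each of the 6 pairs counts once. Reactivated 1 and 2 listed 35 and 388 pairs, so most listings had no score there.

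The 3 promoters differed in where among the groups they had contacts. Atmin fragments scored highest in Early, in Late 3 and 4 and in Reactivated 3 and 4. Dclre1c and Mlh3 were scored in every Basal library and seldom elsewhere. A contact was counted as called at a score of 5 or more. Of the 13 listings, 7 were called in some Basal library, 3 in Early, 7 in Late, with 5 in Reactivated, where 27.1%, 39.9%, 36.8% and 33.8% of all listings were called. Within Basal, Atmin 2, Atmin 3, Mlh3 1 and Mlh3 3 were called in Basal 3 alone, at low scores of 18, 6, 8 and 13. All Late calls came from the library pair Late 3 and 4. All 13 were called in some library, as were 97% of all listings.

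**Figure D1:**
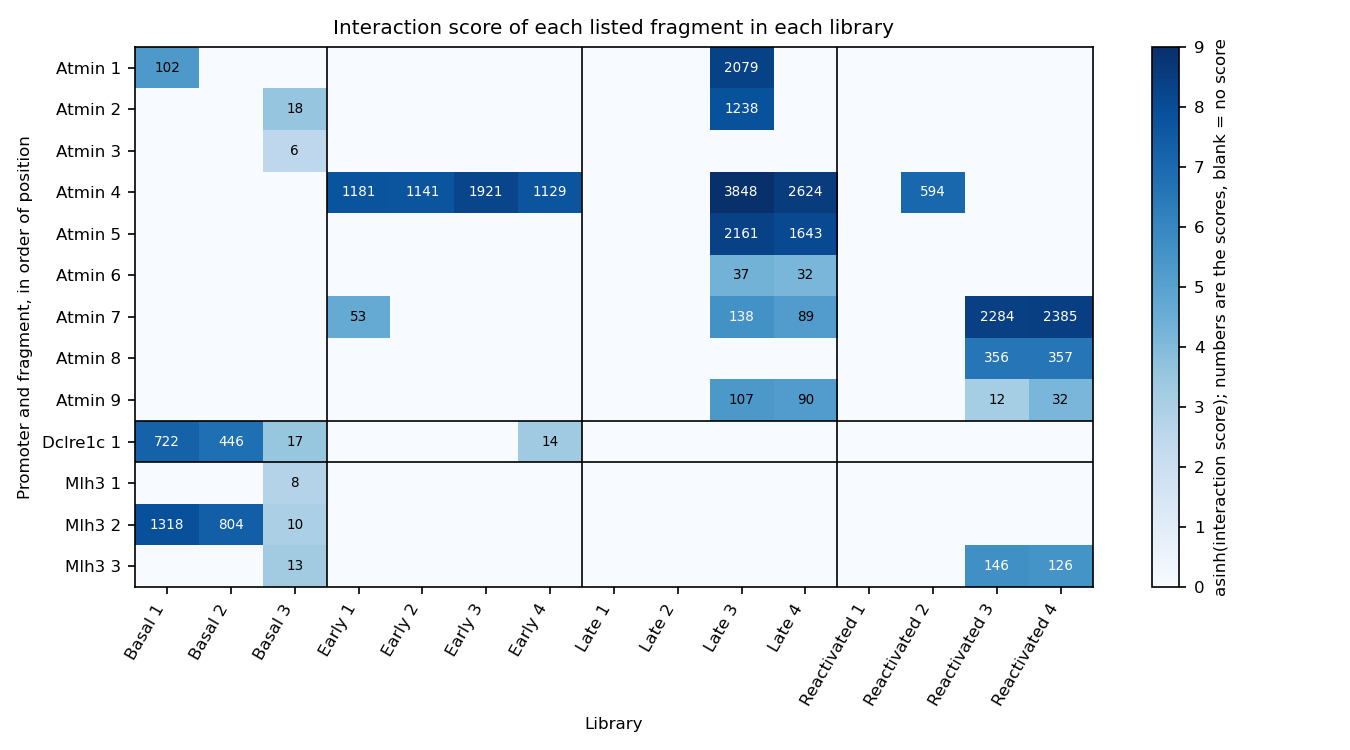
Interaction scores of the 13 fragments of Atmin, Dclre1c and Mlh3 (rows, in order of position on each chromosome) in the 15 libraries (columns); colour is asinh of the score, the printed number is the score and blank cells hold no score. Atmin 4 is filled in all 4 Early libraries with scores of 1129 to 1921, whereas Dclre1c 1 and Mlh3 2 are filled in all 3 Basal libraries.

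Atmin had 9 listed fragments, more than 63.0% of the promoters in the table, whose median was 6, and scores in 11 of 15 libraries. They are called Atmin 1 to Atmin 9 here, in order of position on chromosome 8. Of these, 6 lay within 162 kb, from Atmin 4 (chr8:119468235-119468601) through Atmin 5 (chr8:119469672-119472000), Atmin 6 (chr8:119475933-119479696), Atmin 7 (chr8:119479699-119482240) and Atmin 8 (chr8:119488485-119490010) to Atmin 9 (chr8:119627288-119630342). The other 3 were Atmin 1 (chr8:37344568-37345493), Atmin 2 (chr8:59981264-59983246) and Atmin 3 (chr8:63207842-63211769), at 82.1, 59.5 and 56.3 Mb from Atmin 4. Such a spread is common in the table: 58.4% of the 4070 promoters with several fragments on 1 chromosome spanned over 10 Mb. No bait positions were used, so distances are between fragments and not from the promoter, and whether a fragment lies in an exon or intron was not determined, since no mm9 annotation was used here.

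Atmin 4, a fragment of 367 bp, was the most widely scored of the 13, in 7 libraries and 5 library sets. Its scores were 1181, 1141, 1921 and 1129 in Early 1 to 4. Beyond Early it scored 3848 in Late 3, 2624 in Late 4 and 594 in Reactivated 2, and had no score in Basal 1 to 3, Late 1 and 2 or Reactivated 1, 3 and 4. Early and Basal did not overlap, whereas Late and Reactivated each held both high and missing scores. Its asinh score averaged 7.87 ± 0.257 in Early, 4.38 ± 5.06 in Late, with 1.77 ± 3.54 in Reactivated (SD, n = 4 each), and was 0 in all of Basal (n = 3). Of all listings, 0.157% had every Early library above every Basal library, and 2.07% were scored in 7 or more libraries. These are the values for which the fragment was picked out, and nothing is read from them.

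Within its libraries, Atmin 4 ranked near the top. In Early 1 it was the 5th highest of 6956 listed scores, in Early 3 the 17th of 5615 and in Early 4 the 14th of 6687. In Early 2 it was the 101st of 1715. In Late 3 and 4 it was the 9th of 8225 and the 8th of 8296, and in Reactivated 2 the 10th of 388. Its score was 7.36 to 59.4 times the median listed score of its library. The Early ranks restate scores for which the fragment was picked out, so nothing is read from these ranks. Reactivated 2 is a sparse library.

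The Atmin fragments next to it were scored in fewer libraries. Atmin 5, which starts 1070 bases beyond the end of Atmin 4, scored 2161 in Late 3 and 1643 in Late 4 and nowhere else. Atmin 6 scored 37 and 32 in those libraries and nowhere else. Atmin 7, separated from Atmin 6 by 2 bases in the listed coordinates, scored 53 in Early 1, 138 in Late 3, 89 in Late 4, 2284 in Reactivated 3 and 2385 in Reactivated 4. Atmin 8 scored 356 and 357 in Reactivated 3 and 4 alone. Atmin 9, at 159 kb from Atmin 4, scored 107 and 90 in Late 3 and 4 and 12 and 32 in Reactivated 3 and 4.

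The libraries thus differed in which of these neighbouring fragments carried the high score. In Early it was Atmin 4 in each library, and Atmin 7 was scored in Early 1 alone, below that library's median score of 65. In Late 3 and 4 it was Atmin 4 followed by Atmin 5, with Atmin 7 at 0.863 and 0.899 times the library median. In Reactivated 3 and 4 it was Atmin 7, at 7.42 and 7.62 times the library median, followed by Atmin 8. Atmin 4, 5 and 6 had no score in these 2 libraries, which listed the most pairs of all. Reactivated 2, of the same group, differed from them, with 594 on Atmin 4 and no score on Atmin 7. Late 3 and 4, and likewise Reactivated 3 and 4, are library pairs, so each of these patterns was seen in 1 library set.

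**Figure D2:**
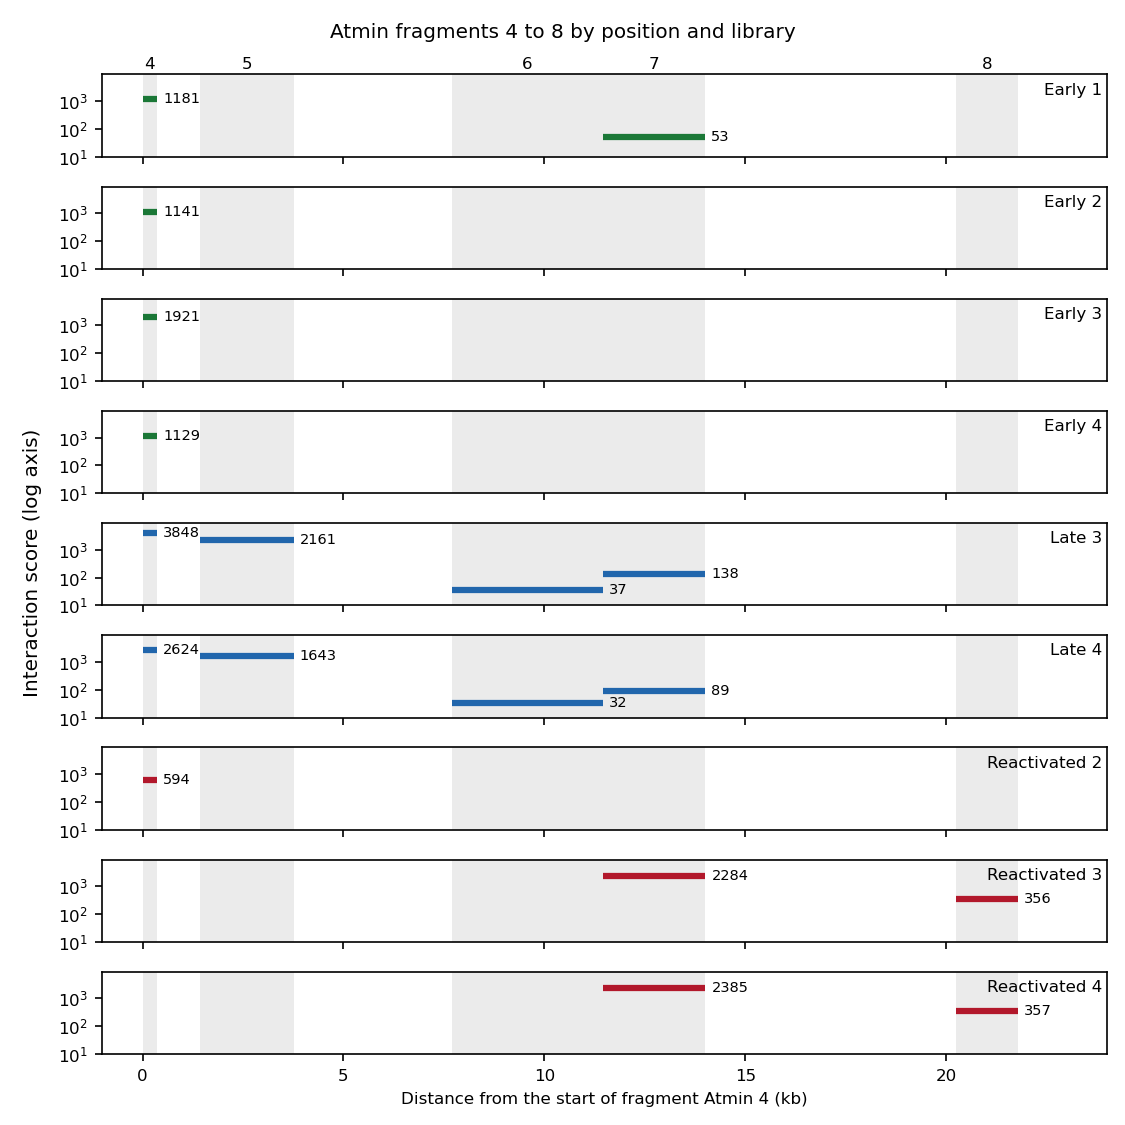
Interaction score (log axis) of fragments Atmin 4 to Atmin 8 against distance in kb from the start of Atmin 4, drawn to scale for the 9 libraries that scored any of them; grey bands mark the fragments and coloured lines the scores (green Early, blue Late, red Reactivated). The high score sits on Atmin 4 in the Early libraries, on Atmin 4 and 5 in Late 3 and 4, and on Atmin 7 in Reactivated 3 and 4. In Reactivated 2 the only score, 594, is on Atmin 4.

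Late 1 and 2, which listed 3435 and 3753 of the 36353 pairs, had no score on any Atmin fragment. The part of their listing size in this was not tested. Atmin had 1 ± 1 called contacts per library in Basal (SD, n = 3), 1.25 ± 0.5 in Early, 3 ± 3.56 in Late, with 1.75 ± 1.5 in Reactivated (SD, n = 4 each). The Late libraries had 0, 0, 7 and 5. The mean asinh score over its 9 fragments was 0.422 ± 0.368 in Basal, 1.00 ± 0.253 in Early, 2.22 ± 2.69 in Late, with 1.23 ± 1.02 in Reactivated. The groups overlapped apart from Early against Basal, where the lowest Early library (0.858) lay above the highest Basal library (0.675). In Early 2, 3 and 4, Atmin 4 was the only Atmin fragment scored. This separation and the Early minus Basal differences of Atmin thus rest on the scores for which Atmin 4 was picked, and nothing is read from them. Without Late 3, Late stood 0.152 above Early in place of 1.22. With Reactivated 1 and 2 left out, Reactivated minus Basal was 1.65 in place of 0.813, Reactivated minus Early 1.07 in place of 0.231 and Reactivated minus Late -0.145 in place of -0.986. Without the fragments shared with other promoters, Early minus Basal was 1.00 in place of 0.582 and Reactivated minus Early 0.0349 in place of 0.231.

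The far fragments of Atmin were scored in 1 or 2 libraries each. Atmin 1 scored 102 in Basal 1 and 2079 in Late 3, Atmin 2 scored 18 in Basal 3 and 1238 in Late 3, and Atmin 3 scored 6 in Basal 3. The partner libraries Basal 2 and Late 4 had no score on any of them. All Basal contacts of Atmin were among these 3 fragments, and no Early or Reactivated library scored them. Atmin 1 was also listed, with identical scores, with D8Ertd82e, and the 15 listings of other promoters within 100 kb of it belonged to D8Ertd82e or Lonrf1. Atmin 9 was likewise a fragment shared between promoters. Such a score cannot be given to one promoter alone.

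Dclre1c had a single fragment, chr2:125128101-125133012, of 4912 bp and listed with no other promoter. The Dclre1c window above starts at base 3423881 of chromosome 2, so this is a pair of long range, with no exact distance across builds. Within 100 kb of the fragment, the 5 listings of other promoters belonged to Eid1, Shc4, Trim44 or Vav2. It scored 722, 446 and 17 in Basal 1 to 3 and 14 in Early 4, and had no score in the other 11 libraries. All 3 Basal libraries lay above all 12 others, as for 0.327% of all listings, though Basal 3 (17) and Early 4 (14) were close. The Basal libraries form 2 library sets, and the fragment was scored in 3 of the 9 sets. Against the other listed scores of its library, the fragment stood at 77.6% in Basal 1, 77.3% in Basal 2, 64.8% in Basal 3 and 15.0% in Early 4, as the share of listed scores at or below it. As a multiple of the library median it stood at 2.41, 2.30 and 1.31 in Basal 1 to 3 and at 0.219 in Early 4. The median listed score of Basal 3 was 13, and its part in the low score there was not tested.

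The asinh score of Dclre1c averaged 5.87 ± 2.04 in Basal (SD, n = 3) and 0.833 ± 1.67 in Early (SD, n = 4), with 0 throughout Late and Reactivated. With 1 fragment this mean is undiluted, whereas that of Atmin runs over 9 fragments of which few are scored in most libraries. Late minus Basal and Reactivated minus Basal were both -5.87. By limma, 0.0677% and 0.0226% of all promoters passed in these 2 comparisons, and with each library pair entered as its mean 0 did. These are shares of the whole table, and no test result is read for Dclre1c. Of all promoters, 7.93% had a single listed fragment.

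Mlh3 had 3 fragments on chromosome 12. Mlh3 2 (chr12:85405941-85408762) scored 1318, 804 and 10 in Basal 1 to 3, which form 2 library sets, and had no score in the other 12 libraries. It was listed with identical scores with Acot4, a gene of an acyl-CoA thioesterase that is separated from Mlh3 by 32 protein-coding genes in the RefSeq order, and every other listing within 100 kb of it belonged to Acot4 or its relative Acot2. The Mlh3 2 score therefore cannot be given to Mlh3 alone. Mlh3 3 (chr12:86605266-86605487) scored 13 in Basal 3, 146 in Reactivated 3 and 126 in Reactivated 4. Mlh3 1 (chr12:71398910-71402767) scored 8 in Basal 3 alone.

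All 3 Mlh3 fragments were thus scored in Basal, and Early and Late had no score on any of them in 8 libraries. Mlh3 2 ranked high in Basal 1 and 2, where 92.7% and 92.3% of listed scores lay at or below it, and in the middle of Basal 3 at 39.6%. Averaged over the 3 fragments, the asinh score was 2.70 ± 0.283 in Basal (SD, n = 3) and 0.934 ± 1.08 in Reactivated (SD, n = 4), with 0 throughout Early and Late. Called contacts were 1, 1 and 3 in Basal 1 to 3 and 0, 0, 1 and 1 in Reactivated 1 to 4. Without the fragment shared with Acot4, Reactivated minus Basal was 0.395 in place of -1.77, and Early minus Basal and Late minus Basal were both -1.01 in place of -2.70. What then remained in Basal came from Basal 3 alone.

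**Figure D3:**
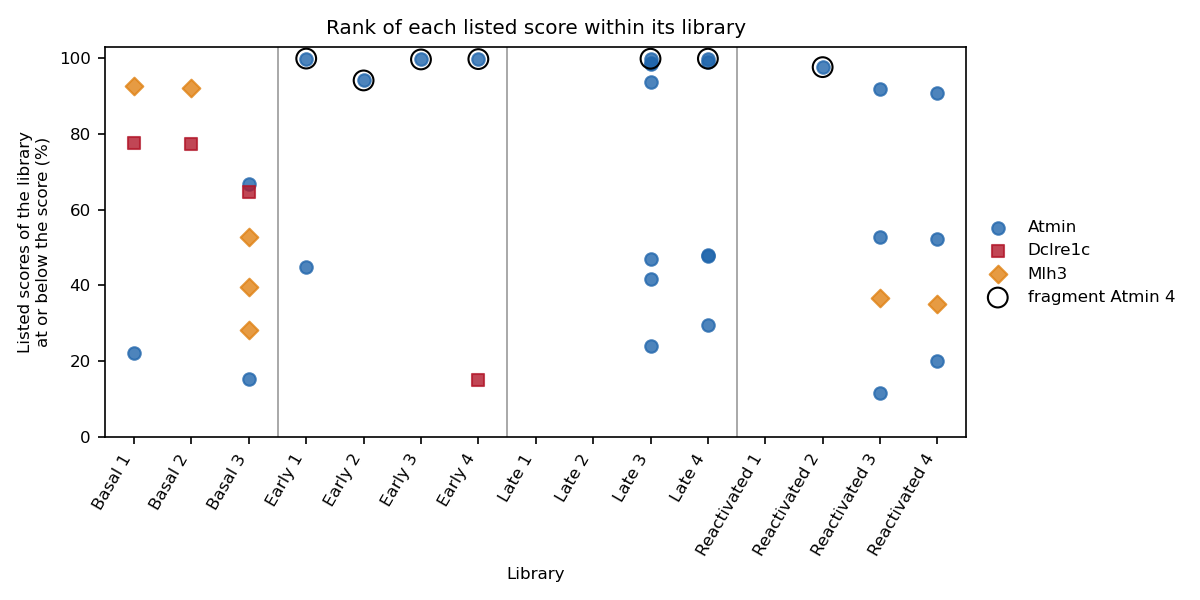
Share of each library's listed scores that lie at or below each listed score of Atmin, Dclre1c and Mlh3 (percent, y axis) by library (x axis); each point is 1 fragment in 1 library, and rings mark Atmin 4. The rings lie between 94.2% and 99.9%, whereas the Dclre1c and Mlh3 points reach at most 92.7%.

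Across the 13 fragments, 3 had groups that did not overlap. Atmin 4 was above Basal in every Early library and, with no score in Reactivated 1, 3 and 4 and 594 in Reactivated 2, below Early in every Reactivated library. Dclre1c 1 and Mlh3 2 were below Basal in every library of Early, Late and Reactivated. Over the table, 0.979% of listings had every Early library below every Basal library, 0.996% every Late library and 1.04% every Reactivated library, and 0.121% had every Reactivated library below every Early library. No fragment of the 3 genes was among the 0.314% with Late above Basal, the 0.286% and 0.0605% with Late above or below Early, the 0.349% with Reactivated below Late, or the 0.00275% with Reactivated above Basal, above Early or above Late. Like Mlh3 2, 0.248% of listings were scored throughout Basal and nowhere else. These comparisons with Basal share the same 3 Basal libraries, which form 2 library sets.

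The promoters whose mean asinh scores ran most alike over the 15 libraries were taken among 3970 or 3971 candidates with a score in 3 or more libraries and no shared fragment. For Atmin these were Acads, a mitochondrial acyl-CoA dehydrogenase gene, Rxfp1, a relaxin receptor gene, and Timp3, a metalloproteinase inhibitor gene, with Pearson's r of 0.958, 0.955 and 0.942. For Dclre1c they were Tbcd, a tubulin folding cofactor gene, Maff, a small Maf transcription factor gene, and Lhx6, an interneuron transcription factor gene, with r of 0.939, 0.923 and 0.905. For Mlh3 they were Dock6, Grina and Gnaq, a G protein subunit gene, with r of 0.998, 0.962 and 0.8995. With 6, 4 and 4 libraries scored in both for the Atmin set, 3, 3 and 4 for the Dclre1c set and 5 in each of the Mlh3 set, these values rest on few libraries, some of them library pairs.

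Of 221 genes in 10 lists of the DNA damage response, 46 had a promoter in the table, the 3 members among them. The other 43 promoters had 305 listings, with 1 to 29 fragments each (median 6) and scores in 1 to 14 libraries (median 7). In 14 of them (32.6%) no Basal library held a score, as in 27.9% of all 4429 promoters. Scores in Basal and in no other group were seen for 2 of the 43 (4.65%) and for 39 of all promoters (0.881%), a difference that was not tested. Each of these 2 had 1 listed fragment, scored in 1 library. No topoisomerase gene of the list of 6 was measured.

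By limma on the mean asinh score with Benjamini-Hochberg adjustment over 4429 promoters, 0 of 43 passed in each, and 4, 4, 8, 4, 8 and 3 had an unadjusted p under 0.05 in Early minus Basal, Late minus Early, Reactivated minus Late, Late minus Basal, Reactivated minus Basal and Reactivated minus Early. Over all promoters 0%, 0.0903%, 0.0677%, 0.0677%, 0.0226% and 0% passed in that order. At an unadjusted p under 0.05, the shares of the 43 were 9.3%, 9.3%, 18.6%, 9.3%, 18.6% and 6.98%, beside 5.83%, 6.95%, 13.8%, 8.2%, 11.2% and 11.3% of all promoters. The lowest adjusted p among the 43 lay between 0.278 and 0.807. Higher mean scores in the first-named group were held by 21, 22, 24, 23, 23 and 24 of the 43 and lower ones by 17, 17, 15, 16, 16 and 13. The higher ones made up 48.8% to 55.8% of the 43, beside 49.7%, 53.9%, 58.5%, 57.0%, 63.0% and 61.6% of all promoters in the same order, so these counts lay at or below the table's share. Their median difference was 0, 0.0684, 0.132, 0.214, 0.0660 and 0.184, beside 0, 0.0620, 0.182, 0.145, 0.311 and 0.258 over all promoters. By limma on single listings, 0 of 305 passed in each comparison, with 44, 51, 86, 44, 74 and 68 at an unadjusted p under 0.05, and 0% of all 36353 listings passed. These counts were 14.4%, 16.7%, 28.2%, 14.4%, 24.3% and 22.3% of the 305, beside 10.6%, 15.1%, 26.2%, 12.9%, 20.3% and 21.3% of all listings.

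These counts changed when single libraries were left out. With Reactivated 1 and 2 left out, which leaves 1 library set in that group, 17, 18 and 18 of the 43 promoters passed in Reactivated minus Late, Reactivated minus Basal and Reactivated minus Early, which is 39.5%, 41.9% and 41.9%, beside 43.8%, 45.6% and 45% of all 4429. Without Reactivated 1 or without Reactivated 2 alone, 2 of the 43 (4.65%) passed against Late and against Early, beside 2.82% to 3.5% of all promoters. Up to 47 of the 305 listings (15.4%) then passed, beside up to 13.6% of all listings. Without Basal 3, 22, 19 and 21 of the 305 passed in Early, Late and Reactivated minus Basal (7.21%, 6.23% and 6.89%), beside 5.76%, 6.15% and 6.24% of all listings. Without Early 1, 1 passed in each (0.328%), beside 0.473%, 0.567% and 0.426%.

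**Figure D4:**
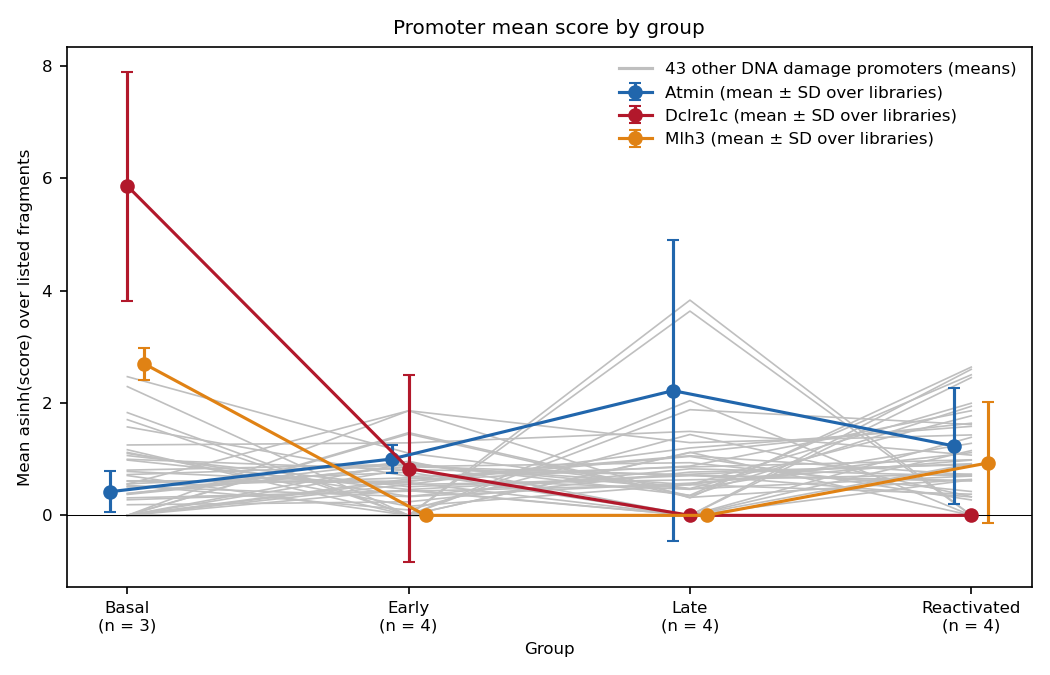
Promoter means of asinh(score) by group; coloured points and bars are the mean and SD over libraries for Atmin, Dclre1c and Mlh3 (n = 3 in Basal and 4 in the other groups), and grey lines are the group means of the 43 other DNA damage promoters. Dclre1c has a Basal mean of 5.87, the highest drawn, and lies at 0 in Late and Reactivated.

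Among damage kinases and their partners, 8 of 21 genes were measured. Etaa1, which encodes an activator of the kinase ATR, had 29 fragments and 5.67 ± 1.15 called contacts in Basal (SD, n = 3), 2.75 ± 1.71 in Early, 3.75 ± 3.77 in Late, with 2.5 ± 3.32 in Reactivated (SD, n = 4 each). Mre11a, the nuclease gene of the break-sensing MRN complex, had 2 ± 3.46, 2.75 ± 3.40, 2 ± 1.15 and 1 ± 1.15 in the same order. Etaa1 had at least 5 called contacts in each Basal library, whereas Atmin had 1, 0 and 2; the difference between the genes was not tested.

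Of the checkpoint and p53 genes, 7 of 26 were measured. Bax, a pro-apoptotic p53 target, held the 1 listing of the 305 whose Early libraries all lay above Basal, where 0.157% of all listings did. That fragment (chr7:52443256-52458138) scored 165, 950, 1727 and 924 in Early 1 to 4 and 48 in Basal 3, with no score in Basal 1 and 2. Beyond these groups it scored 2037 and 1366 in Late 3 and 4, 201 in Reactivated 2 and 11 and 7 in Reactivated 3 and 4. Pmaip1, another p53 target, had 1 ± 1.73 called contacts in Basal, followed by 1.25 ± 0.957, 1.75 ± 0.5 and 0.5 ± 0.577 in Early, Late and Reactivated.

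Among the repair genes, end joining was represented by Dclre1c, Polq, which encodes a polymerase of an alternative end joining route, and Aplf. Polq had 0.333 ± 0.577 called contacts in Basal, 0.25 ± 0.5 in Early, 1.5 ± 0.577 in Late, with 1 ± 1.15 in Reactivated. Aplf had at most 1 in any library and 0 in all Late and Reactivated libraries. In mismatch repair, where 3 of 10 genes were measured, Mlh3 had 1.67 ± 1.15 called contacts in Basal, 0 in Early and Late and 0.5 ± 0.577 in Reactivated. Msh6, a gene of mismatch recognition, had 1 fragment, scored in 2 Reactivated libraries alone. Of the homologous recombination genes, 8 of 42 were measured, and Rad54b and Xrcc2 had scores in 14 and 11 libraries.

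In nucleotide excision repair, where 7 of 24 genes were measured, a fragment of Ercc2, a helicase gene of TFIIH (chr7:25973120-25989532), scored 124, 67 and 18 in Basal 1 to 3 and in no other library. A fragment of Rev3l, which encodes the catalytic subunit of a translesion polymerase (chr10:122322005-122327740), scored 880, 547 and 4 in Basal 1 to 3 and 20 in Late 1, and was listed with 1 further promoter, for 2 in all. These were the 2 of the 305 listings with every Early library below every Basal library, where 0.979% of all listings were. Ccnh, a TFIIH-associated cyclin gene, had 3.33 ± 1.53 called contacts in Basal, 1.5 ± 1.29 in Early, 2.5 ± 2.38 in Late, with 2.5 ± 2.89 in Reactivated. Usp1, a deubiquitinase gene of crosslink repair, had 0.667 ± 0.577, 1 ± 1.41, 1.25 ± 0.5 and 0.5 ± 0.577 in the same order. In break-site chromatin, 1 of 20 genes was measured, Uimc1, whose product binds ubiquitin chains at breaks, with 1.33 ± 0.577 called contacts in Basal, 1.25 ± 0.5 in Early, 1.5 ± 0.577 in Late, with 1.25 ± 1.89 in Reactivated. In base excision and single-strand break repair, 3 of 26 were measured: Mgmt, a repair methyltransferase gene, was scored in 5 libraries and in no Early or Reactivated one, and the break sensor gene Parp1 in 2 Late libraries alone.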

How the data were processed

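The deposited table holds, per the file headers, the authors' interaction score in 15 libraries for each listed promoter and fragment; build mm9 is from the submitters' processing notes. For the aligner, score program, filters and any normalization: not given in the sources used here. Groups and replicate numbers are from the sample titles; the labelled collection days conflict with the protocol and were not used. The design text calls the libraries biological replicates of pooled mice.

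Groups were compared with limma 3.58.1 (statmod 1.5.0, R 4.3.3) on asinh(score), 0 where none is listed, in 1 fit over 15 libraries with a variance trend and robust empirical Bayes, per listing and per promoter mean, at a Benjamini-Hochberg adjusted p under 0.05. The fits were also run on scores shuffled within each library, with large group differences planted. Shuffling removes the overlap of library pairs, so these runs do not show how the fits behave with that overlap. Other values came from Python 3.11.15, pandas 2.3.3 and numpy 2.4.6, figures from matplotlib 3.10.9. The members and gene lists were chosen with earlier results of these data known. Named beside the members were, per list, the 2 promoters scored in most libraries, and per member the 3 most correlated promoters. A gene that this rule names is not reported here. The Bax, Ercc2 and Rev3l fragments were picked after their values were seen. Alternatives covered the scale, library scaling, variance trend, filters, library pairs, the replicate block and each library left out.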

Additional observations from a re-analysis of the deposited data

Results flagged for a closer look

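A library far from the others of its group was looked for in each of the 39 combinations of a fragment with a group of 4 libraries, by the gap to the nearest library relative to the group's range, and 6 were found. Chance alone gives about 1 in 20, and of the 39 combinations 15 held any score, so a group with a single scored library always meets the limit. Atmin 1 in Late had 2079 in Late 3 and no score in the other 3 libraries, and Atmin 2 had 1238 in Late 3 alone. Atmin 4 in Early had 1921 in Early 3, against 1129 to 1181 in Early 1, 2 and 4, scores for which the fragment was picked out. Atmin 4 in Reactivated had 594 in Reactivated 2 alone, and Atmin 7 in Early had 53 in Early 1 alone. Dclre1c 1 in Early had 14 in Early 4 alone, without a score in its partner library Early 3.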

How the results depend on the processing

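In the order Early minus Basal, Late minus Early, Reactivated minus Late, Late minus Basal, Reactivated minus Basal and Reactivated minus Early, the limma fit called 0 listings in each and 0, 4, 3, 3, 1 and 0 promoters. Leaving out one library at a time moved the listings from 0 to between 0 and 2093, 93, 4929, 2237, 4468 and 4688, and the promoters to between 0 and 66, 12, 155, 68, 62 and 135. Of the 305 other DNA damage listings between 0 and 22, 0, 47, 19, 47 and 45 passed, and of the 43 promoters between 0 and 0, 0, 2, 0, 0 and 2. Without the variance trend, 142, 57, 59, 201, 146 and 5 listings passed, with 1 DNA damage listing in each of Early minus Basal, Late minus Basal and Reactivated minus Basal, and 3, 5, 2 and 1 promoters in Early minus Basal, Reactivated minus Late, Reactivated minus Basal and Reactivated minus Early. With Reactivated 1 and 2 left out, 191, 63, 9121, 236, 9052 and 9127 listings and 9, 13, 1940, 23, 2020 and 1991 promoters passed. Of the DNA damage listings 1, 0, 79, 1, 77 and 76 then passed, and of the promoters 17, 18 and 18 in Reactivated minus Late, Reactivated minus Basal and Reactivated minus Early. Scaled to the library median, 9, 8, 9, 10, 5 and 1 promoters passed. With listings scored in at least 3 libraries, 11, 7, 6, 15 and 11 passed in the first 5, with 1 DNA damage promoter, Rev3l, in Early minus Basal and in Reactivated minus Basal. On ln(score + 1), 1 promoter passed in Late minus Early and 1 in Reactivated minus Late. With library pairs as means, 0 promoters passed in each of the 6 comparisons. With fragments of 1 promoter, 10, 11, 15 and 5 passed in Late minus Early, Reactivated minus Late, Late minus Basal and Reactivated minus Basal. The cause of these shifts was not tested.

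Deviations of same-numbered libraries from their group means correlated at -0.0468 to 0.0665 over 21 pairs, with 0 over 0.1. Those of other-numbered libraries correlated at -0.0629 to 0.063 over 63 pairs. No pairing by replicate number was thus seen, but whether the numbers mark shared mice or batches was not tested. With the replicate block, 5 promoters passed in Reactivated minus Late and 0 in Reactivated minus Basal, and the block moved no other count by over 1.5 times. The 13 called contacts became 11 at a score of 10 or more, 11 without Basal 3 and 10 with fragments of 1 promoter. Among the differences of the 3 members, that of Mlh3 in Reactivated minus Basal turned to 0.395 with fragments of 1 promoter, and Early minus Basal moved from -2.70 to -1.01 for Mlh3 and from 0.582 to 1.00 for Atmin. With Reactivated 1 and 2 left out, Atmin moved from 0.813 to 1.65 in Reactivated minus Basal, from 0.231 to 1.07 in Reactivated minus Early and from -0.986 to -0.145 in Reactivated minus Late, and Mlh3 from 0.934 to 1.87 in Reactivated minus Late and Reactivated minus Early and from -1.77 to -0.832 in Reactivated minus Basal. Atmin in Reactivated minus Late ran from -1.73 to 0.0794 and in Reactivated minus Early from -0.0685 to 0.643 with one library left out, turning without Late 3 in the former and without Reactivated 3 or 4 in the latter. Few libraries, fewer still as library sets, limit the precision.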

Other observations

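Partner libraries did not always share a high score. Of 799 listings with a score of 1000 or more in Late 3, 61 (7.63%) had no score in Late 4, and Atmin 1 and Atmin 2 were among them. In Basal 1 the same held for 60 of 619 (9.69%) against Basal 2, in Reactivated 3 for 34 of 2780 (1.22%) against Reactivated 4, and in Early 3 for 0 of 85 against Early 4.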
